A study of Mus musculus with 3 samples.

Results

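Glutamatergic neurons of the mouse mediobasal hypothalamus were picked from single-cell libraries of the arcuate nucleus by their own transcripts, and 107 of 14869 barcodes that passed the filters on genes and mitochondrial share met the rule. A barcode had to hold at least 500 detected genes, at most 20% mitochondrial UMIs (unique molecular identifiers, one per captured RNA molecule), and at least 10 UMIs of the neuronal genes Meg3, Snhg11, Snap25 and Syt1 together. It also had to hold at least 1 UMI of Slc17a6, the vesicular glutamate transporter VGLUT2, and none of Gad1, Gad2 or Slc32a1, which make and load GABA. Barcodes with 20 or more UMIs of Pomc, Sst, Ghrh, Tac2 or Gal were left out, as were those with 2 or more UMIs of Cldn5, Mog or Pdgfra. These genes chose the members, so their levels below are a description.

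The study compared diets in male C57BL/6JRj mice aged 5 to 6 weeks. The SC library came from mice on standard chow for 15 days after weaning, the 5-day HFHS library from mice with 10 days of chow and then 5 days of a high-fat high-sugar diet, and the 15-day HFHS library from mice on that diet for all 15 days. Each library pooled punches of the arcuate nucleus from 6 mice, so each diet is 1 sample, no test between diets exists, and the spread between animals was not measured. Intervals given below cover counting error only.

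The SC, 5-day and 15-day libraries held 7116, 6204 and 7823 barcodes and 59315940, 52735770 and 43193012 UMIs. Of these barcodes, 5116, 4252 and 5501 passed the filters, with median depths of 5212, 5801.5 and 4172 UMIs. Pairs of libraries shared 4 to 27 passing barcode sequences and none among the members.

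Glutamatergic neurons release glutamate that VGLUT2 has packed into synaptic vesicles, and in the hypothalamus they are abundant in the ventromedial nucleus, which lies directly above the arcuate nucleus. Ventromedial neurons are known for Nr5a1 (steroidogenic factor 1, a nuclear receptor that defines the nucleus), Fezf1 (a zinc-finger factor needed for its formation) and Adcyap1, which encodes the neuropeptide PACAP. This nucleus takes part in glucose control, energy balance, defence and sexual behaviour. Tac1 encodes the precursor of substance P and neurokinin A, and Foxp2 a forkhead transcription factor, and both also mark glutamatergic cells of neighbouring hypothalamic areas.

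Adcyap1 and Tac1 are the peptide genes the members are known by, and the bases just upstream of each are shown because both genes are known to respond to cyclic AMP signalling. Both stretches come from RefSeq (GRCm38.p6) and read 5′ to 3′ on the gene's strand. Capitals mark a CRE half-site, TGACG or CGTCA on the strand shown.
Adcyap1, chr17:93198767-93199016, plus strand: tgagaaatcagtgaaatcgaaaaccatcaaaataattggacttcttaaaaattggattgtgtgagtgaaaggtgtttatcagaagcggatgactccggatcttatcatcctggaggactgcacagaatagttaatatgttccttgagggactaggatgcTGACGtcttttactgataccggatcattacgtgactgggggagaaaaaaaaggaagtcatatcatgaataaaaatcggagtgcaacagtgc
Tac1, chr6:7554811-7554878, plus strand: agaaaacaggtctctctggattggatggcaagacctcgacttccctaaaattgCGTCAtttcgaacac
The Adcyap1 half-site lies 91 bases before one RefSeq start and 242 before the other. The Tac1 stretch ends just before the GENCODE gene start at 7554879, and the RefSeq start lies further downstream. Its half-site lies 197 bases before the RefSeq start, and another, not shown, lies 43 bases before that start. Of 32851 RefSeq windows of the 250 bases before a start, 17.8% hold a half-site on either strand, 1.55% the full CRE TGACGTCA (which contains half-sites) and 1.33% CAAGGTCA, a motif of steroidogenic factor 1. Of 13 member genes searched, 10 had a window, and none of their windows held CAAGGTCA. A match describes letters and says nothing about binding in these cells.

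Of the 107 barcodes, 75 carried a neuronal profile. The other 32 held more UMIs of 28 tanycyte, ependymal and astrocyte genes than of 15 pan-neuronal genes, and are called glial-marker barcodes here; this split was made after the values were seen. The 75 neuronal members (33 in SC, 13 in 5-day, 29 in 15-day) held 135 to 824 pan-neuronal UMIs per 10000, with a median of 322, and 0 to 95.2 glial-list UMIs per 10000. In the glial-marker barcodes (12, 11 and 9) the pan-neuronal list reached 12.3 to 60.9 per 10000 and the glial lists 52.8 to 143. The groups did not touch at the boundary, where the ratio of neuronal to glial list UMIs was at least 2.44 on one side and at most 0.91 on the other. The pan-neuronal list includes the 4 neuronal genes of the rule, which gave 82.3% of its UMIs in the neuronal members. With only the other 11 genes, 69 of the 75 neuronal members and 0 of the 32 glial-marker barcodes still held more neuronal than glial list UMIs, at medians of 42.6 and 6.62 neuronal UMIs per 10000. Without Meg3, 71 of the 75 neuronal members still met the neuron sum of 10 UMIs. In 1 member, of the 5-day library, Snhg11, Snap25 and Syt1 had no UMI.

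**Figure D1:**
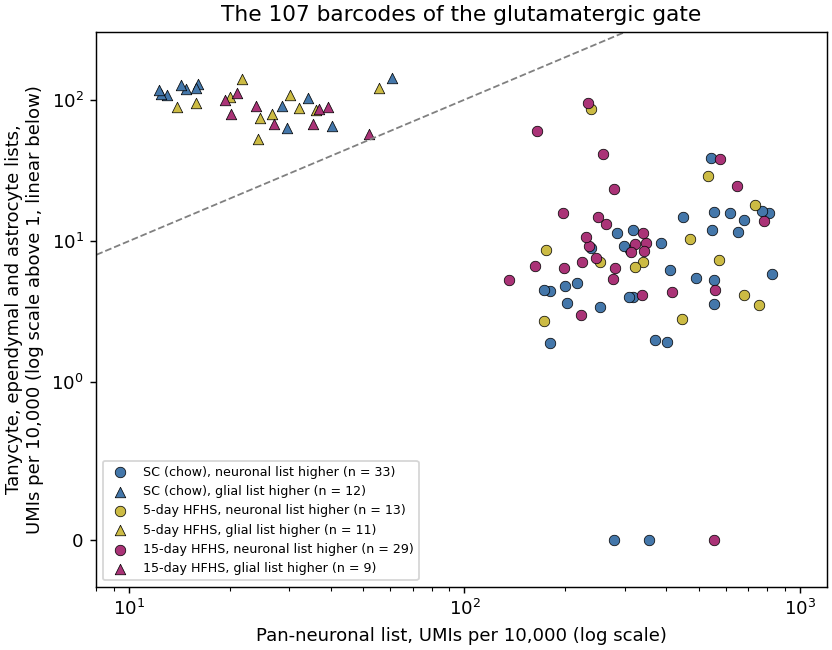
Each point is 1 of the 107 barcodes, placed by its pan-neuronal list UMIs per 10000 (x axis, log scale) and its glial list UMIs per 10000 (y axis, log scale above 1). Circles are the 75 neuronal members and triangles the 32 glial-marker barcodes, which form separate clouds on either side of the dashed line of equal values.

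Only 1 of the 32 glial-marker barcodes met the neuron threshold without Meg3, a nuclear long noncoding RNA also present in glia, which had a median of 27 UMIs over the 32. Snhg11 had 131 UMIs in 15 of them, 99 in 1 SC barcode. Snap25 and Syt1, which encode core proteins of vesicle release, summed to only 6 and 2 UMIs over all 32 barcodes. Their Slc17a6 counts were 1 to 3, with a median of 1. Rax, a homeobox gene of tanycytes, was present in 30 of the 32 with 314 UMIs, while the 75 neuronal members held 2 Rax UMIs in all. Vim summed to 974 UMIs and Sox9 to 578, against 10 and 5 in the neuronal members. Among all glial-side barcodes of the neuron gate without GABA genes, 3.24% in SC, 4.00% in 5-day and 3.33% in 15-day held Slc17a6. Beside these stand the 2.67% of 1537 oligodendrocyte, 2.22% of 1846 microglial and 2.59% of 1197 endothelial barcodes with a Slc17a6 UMI, at median depths of 13476, 5160.5 and 7436 UMIs. Here and below, these barcodes held at least 10 UMIs of marker genes of that type. They were also chosen to hold under 10 UMIs of Meg3, Snhg11, Snap25 and Syt1 together, which by itself keeps their neuronal RNA low.

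The glial-marker barcodes were deep, and held 55.1% of the members' UMIs in SC, 61.9% in 5-day and 40.9% in 15-day. Results are therefore given first for the 75 neuronal members, with values over all 107 for the shares, the counts of genes and many of the genes named. The neuronal members held 366712, 146635 and 211123 UMIs in the SC, 5-day and 15-day libraries. Their median depths were 7447, 5658 and 5355 UMIs per cell, within a range of 681 to 56537. The mitochondrial share had medians of 11.5%, 9.34% and 11.3%.

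At the thresholds of the rule, 27 of the 75 neuronal members held a single Slc17a6 UMI and 48 held 2 or more, up to 34. Just outside, 192 neuronal-side barcodes held neither Slc17a6 nor a GABA gene, at a median depth of 1809.5 UMIs, and 42 with Slc17a6 were kept out by a single UMI of Gad1, Gad2 or Slc32a1. The mitochondrial limit kept 9 members at 18 to 20% and left out 47 barcodes at 20 to 25%. The neuron sum lay at 10 to 14 UMIs in 6 of the 107 members, and at 5 to 9 in 17 barcodes left out.

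Glutamatergic members made up 45 of 741 neuron-gate barcodes in SC (6.07%, exact Clopper-Pearson 95% interval 4.46 to 8.04), 24 of 537 in 5-day (4.47%, 2.88 to 6.58) and 38 of 711 in 15-day (5.34%, 3.81 to 7.26). Counted among neuronal-side barcodes only, they were 33 of 305 (10.8%, 7.57 to 14.9), 13 of 209 (6.22%, 3.35 to 10.4) and 29 of 388 (7.47%, 5.06 to 10.6). The intervals of the 3 libraries overlap under both denominators. GABAergic neurons of the same gate, with a GABA gene and no Slc17a6, numbered 424 on the neuronal side.

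Genes of glutamate signalling that the rule did not use were present, but they did not set the members far apart from the GABAergic neurons. Of 4 genes of the glutamatergic release list with enough UMIs, 4 were higher in the members in each library. Of these, 0 reached 2-fold in each library. Gria2, an AMPA receptor subunit, was detected in 70 of the 75 neuronal members, and Grin1, the obligatory NMDA receptor subunit, was at 235, 286 and 227 CPM (counts per 1000000 UMIs summed over the cells of a library) in SC, 5-day and 15-day. The cortical transporter Slc17a7 had no UMI, and Slc17a8 had 8 in 3 cells. Of the GABAergic lineage factors, which the rule did not use, Dlx1, Dlx2 and Dlx5 had none.

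Adcyap1 was detected in 14 of 33 neuronal members in SC (42.4%, interval 25.5 to 60.8), 8 of 13 in 5-day (61.5%, 31.6 to 86.1) and 14 of 29 in 15-day (48.3%, 29.4 to 67.5). Over the 3 libraries that is 36 of 75, or 48%, against 4.25% of the 424 GABAergic neurons. Cell types that should lack the gene stood lower still, at 1.37% of oligodendrocyte, 1.41% of microglial and 0.585% of endothelial barcodes. Barcodes of these types rich in the neuronal genes of the rule had been left out, so a low value was partly set by that choice. Positive cells held 1 to 17 UMIs in SC (median 2.5), 1 to 11 in 5-day (median 3) and 1 to 19 in 15-day (median 5.5). Adcyap1 lies on chromosome 17 at 93199017 to 93206537 (GRCm38).

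Tac1 was detected in 15 neuronal members in SC (45.5%), 7 in 5-day (53.8%) and 13 in 15-day (44.8%), together 35 of 75. Its counts were the highest of the 3 marker genes in UMIs per cell, with medians of 10, 7 and 8 UMIs in positive cells and a maximum of 92 in SC. Outside the neurons, Tac1 had a UMI in 13.3% of oligodendrocyte barcodes at a median depth of 13476 UMIs, 3.41% of microglial and 3.76% of endothelial ones, and 6.13% of GABAergic neurons. At 4000 UMIs it was in 6.22% of oligodendrocyte, 1.76% of microglial and 2.37% of endothelial barcodes. The neuronal members, at a median depth of 5658 UMIs, lay above all of these. Tac1 lies on chromosome 6 at 7554879 to 7565834.

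Foxp2 was detected in 12 neuronal members in SC (36.4%), 5 in 5-day (38.5%) and 10 in 15-day (34.5%), together 27 of 75, against 6.84% of GABAergic neurons. Its counts were low, with medians of 2.5, 1 and 2.5 UMIs in positive cells, and 10 of the 27 cells held a single UMI. Foxp2 spans 14901349 to 15441977 on chromosome 6.

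The genes that define the ventromedial nucleus were sparser. Nr5a1 was detected in 24 of 75 neuronal members, 9 in SC, 6 in 5-day and 9 in 15-day, and 16 of the 24 held 1 UMI. That share, 32%, compares with 1.89% of GABAergic neurons and at most 0.390% of oligodendrocyte, microglial or endothelial barcodes. Fezf1 was detected in 12 cells with 43 UMIs, and in 0.472% of GABAergic neurons. Nr5a1 or Fezf1 was present in 31 of the 75 cells and both in 5. Over all 107 members, Adcyap1 was detected in 34.6%, Tac1 in 35.5%, Foxp2 in 26.2% and Nr5a1 in 23.4%.

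**Figure D2:**
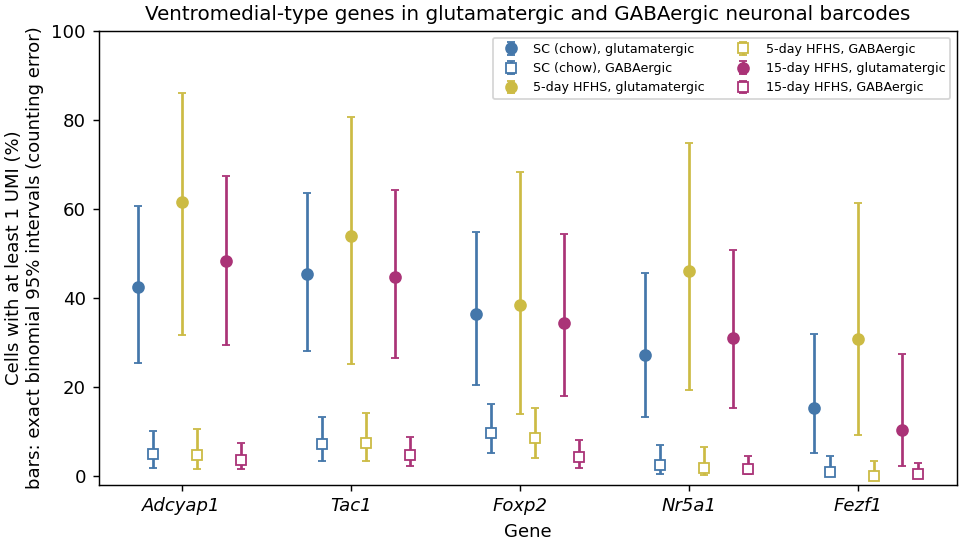
The y axis is the percent of cells with at least 1 UMI of each gene on the x axis, for glutamatergic neuronal members (filled circles) and GABAergic neurons (open squares) in each library, with exact binomial 95% intervals. For all 5 genes the glutamatergic value lies above the GABAergic value in each library, and the intervals of the 3 diets overlap within each class.

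Depth moves with these shares. Cells with Adcyap1 had a median of 8226.5 UMIs and cells without it 4050, and the split by Tac1 was 8385 against 4099.5. Each cell was then thinned to 4000 UMIs in a single random draw, so all values at that depth carry the noise of the draw. This left out the 24 of 75 cells below that depth and kept 25 in SC, 8 in 5-day and 18 in 15-day. Adcyap1 was found in 6 (24%), 5 (62.5%) and 11 (61.1%) of the thinned cells. The thinned Adcyap1 intervals were 9.36 to 45.1% in SC and 35.7 to 82.7% in 15-day, which still overlap. Thinned Tac1 was found in 11, 5 and 10 cells (44.0%, 62.5% and 55.6%), and thinned Foxp2 in 7, 3 and 7 (28.0%, 37.5% and 38.9%).

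The 3 markers often fell in the same cells. All 3 were present in 19 neuronal members (8 in SC, 4 in 5-day, 7 in 15-day), 2 of them in 13, 1 in 15 and none in 28. Tac1 was detected in 28 of 36 cells with Adcyap1 (77.8%) and in 7 of 39 without it (17.9%). Deep cells detect more of every gene, and the cells with all 3 had a median of 8068 UMIs against 3345 in cells with none. At the fixed depth of 4000 UMIs the difference was smaller but present, with Tac1 in 16 of 22 cells with Adcyap1 (72.7%) and 10 of 29 without (34.5%). Foxp2 at that depth was found in 11 of 22 cells with Adcyap1 (50%) and 6 of 29 without (20.7%).

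Foxp2 and Fezf1 were seldom found together. Fezf1 was detected in 1 of 27 cells with Foxp2 (3.70%) and in 11 of 48 without it (22.9%), and at 4000 UMIs in 0 of 17 and 8 of 34. Nr5a1 did not show this split, with 11 of 27 and 13 of 48. With so few cells these are counts and not a test of exclusion.

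**Figure D3:**
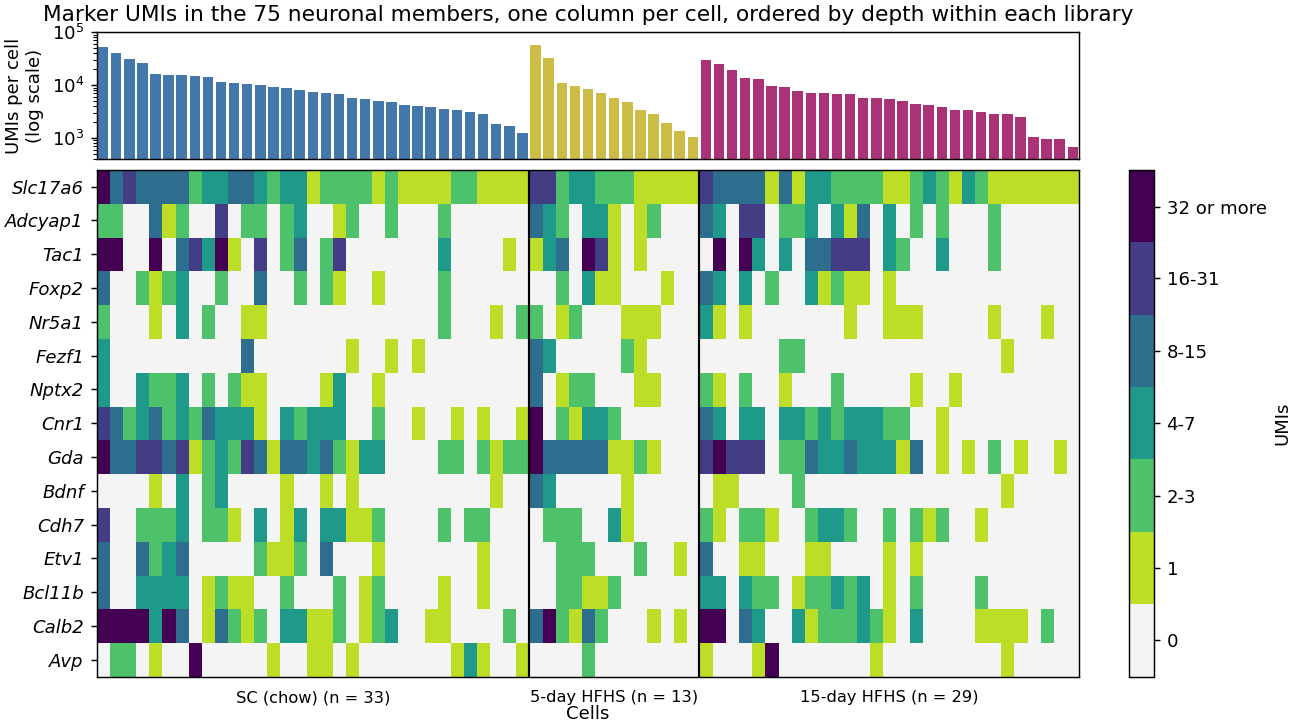
Columns are the 75 neuronal members ordered by UMIs per cell (bars, log scale) within each library, rows are marker genes, and the colour is the number of UMIs. Slc17a6 is present in every column by the rule, Adcyap1, Tac1 and Foxp2 share many columns on the deep side of each library, and Avp is high in 1 SC and 1 15-day cell.

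Cells with each marker were compared with the other neuronal members, naming genes at least 2-fold higher in both libraries with 10 or more positive cells (SC and 15-day) and at least 60 UMIs in the positive cells. The positive cells were chosen by a readout of the same libraries, so these are descriptions. For Adcyap1, 24 of 1664 genes passed (1.44%), for Tac1 20 of 1569 (1.27%) and for Foxp2 13 of 998 (1.3%), each count including the selecting gene itself. Without the positive cell holding most UMIs of the gene in each library, an alternative chosen after seeing the data, 9, 9 and 8 still passed.

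In the Adcyap1 cells the leading genes were Tac1 and Foxp2. Tac1 was at 1373 against 158 CPM in SC and 1361 against 143 CPM in 15-day. Serpine2, a secreted protease inhibitor, was at 153 against 50.7 CPM in SC and 199 against 71.3 CPM in 15-day. All 3 still passed without the leading cell. Lmo3, a LIM-domain transcription cofactor, was at 397 against 171 CPM in SC and 220 against 57.1 CPM in 15-day, but 1 cell held 55 of its 83 SC UMIs, and without the leading cells the values were 178 and 99.1 CPM. In 5-day Lmo3 was at 227 against 213 CPM. Rgs2, a regulator of G-protein signalling, passed for both Adcyap1 and Tac1 cells, and in neither case without the leading cells.

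In the Tac1 cells, Ptprg, a receptor tyrosine phosphatase, was at 113 against 6.85 CPM in SC and 207 against 39.9 CPM in 15-day. The adhesion genes Cdh7, Cntnap5a and Cadm2 also passed, Cadm2 only with its leading cells. In the small 5-day set Cdh7 went the other way, at 72.0 CPM in Tac1 cells and 139 CPM in the rest. Ctsd, a lysosomal protease, passed only with its leading cells, and shares 34.4% of its exon bases with an overlapping gene model on the same strand.

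Genes that passed in the Foxp2 cells included Etv1, Bcl11b, Nrgn, Trim37, Nefl, Eps15, Smap2 and Tppp3. Of these, Trim37 and Nefl passed only with their leading cells. In 5-day, Nefl, Smap2 and Tppp3 went the other way, at 88.7, 0 and 59.2 CPM in Foxp2 cells against 266, 213 and 177 CPM. Etv1, an ETS transcription factor, was at 294 against 15.8 CPM in SC, 118 against 53.2 CPM in 5-day and 120 against 21.2 CPM in 15-day. Bcl11b (CTIP2, a zinc-finger factor) was at 265 against 36.9 CPM, 237 against 17.7 CPM and 308 against 84.9 CPM, so both were higher in the Foxp2 cells of each library. In 15-day, 1 cell held 10 of the 14 Etv1 UMIs of the Foxp2 cells, and without it the level was 46.0 CPM. By cells, Bcl11b was detected in 23 of 27 with Foxp2 (85.2%) and 11 of 48 without (22.9%), and at 4000 UMIs in 10 of 17 (58.8%) and 12 of 34 (35.3%). Etv1 at that depth was in 8 of 17 (47.1%) and 4 of 34 (11.8%). Nrgn, a calmodulin-binding postsynaptic protein, was higher in the Foxp2 cells of SC (1733 against 570 CPM) and 15-day (2379 against 170 CPM) and lower in those of 5-day (473 against 1188 CPM). A single Foxp2 cell held 43.3% of these Nrgn UMIs in SC and 60.4% in 15-day, and without it the levels were 1386 and 1266 CPM.

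Other ventromedial genes varied in level among the 75 cells. Gda, guanine deaminase, had 566 UMIs in 59 cells and Cnr1, the cannabinoid receptor CB1, 248 in 44. Rreb1, a zinc-finger factor, had 156 UMIs in 40 cells, Nptx2, a secreted pentraxin, 60 in 25, Nkx2-1, a homeobox factor of the ventral hypothalamus, 57 in 25, and Bdnf 39 in 15. Esr1, the oestrogen receptor of ventrolateral ventromedial cells, had 11 UMIs in 7 cells. Nup62cl had none.

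Markers of other hypothalamic areas ranged from absent to frequent. Of the premammillary and mammillary list, Tac1 had 592 UMIs in 35 cells and Dlk1 97 in 26, while the factors Foxb1, Irx3, Irx5, Barhl1 and Lmx1b had no UMI and Sim1 and Lhx1 had 2 each. Hcrt and Vip had none and Pmch had 1. The leptin receptor Lepr had 2 UMIs in 2 cells. Avp, the vasopressin precursor of magnocellular and suprachiasmatic neurons, had 1960 UMIs, of which 1495 came from 1 SC cell and 439 from 1 15-day cell.

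Hormone and transmitter receptors differed widely in how many cells held them. Thra, a thyroid hormone receptor, was detected in 60 of 75 cells, Ntrk2, the BDNF receptor, in 58, Oprl1, the nociceptin receptor, in 44, Nr3c1, the glucocorticoid receptor, in 40 and Prlr, the prolactin receptor, in 37. Adcyap1r1, the receptor for PACAP itself, was detected in 33 cells with 66 UMIs, at 84.5, 102 and 94.7 CPM in SC, 5-day and 15-day. Insr was in 26 cells and Mc4r in 11.

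RNA of other cell types was present in some neuronal members. The 10 microglial genes summed to 27.3 CPM in SC, 47.7 CPM in 5-day and 900 CPM in 15-day, where a single cell held 181 of the 190 UMIs, and without it the value was 45.4 CPM. The 10 oligodendrocyte genes summed to 477, 1112 and 1265 CPM, and to 393, 737 and 755 CPM without the cell with the most in each library. Tanycyte genes summed to 278, 232 and 398 CPM, astrocyte genes to 330, 436 and 398 CPM and ependymal genes to 49.1, 68.2 and 232 CPM. Of the ependymal UMIs, 1 cell held 90% in 5-day and 63.3% in 15-day, and without it the values were 11.1 and 87.5 CPM. Scrublet's automatic threshold for doublets marked 0% of SC, 1.27% of 5-day and 1.53% of 15-day barcodes, so it did not work in SC. Of the 596 barcodes with the highest doublet scores, 3 were among the 75.

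The neuronal members were next set beside the 424 GABAergic neurons of the same gate, as a description, since the genes of the rule belong to this contrast and were set aside. A gene was counted at 2-fold or more the same way in each of the 3 libraries. Of 6785 genes, 157 were higher in the glutamatergic cells (2.31%) and 89 lower (1.31%). With the glial-marker barcodes kept in both classes, 93 of 6625 were higher (1.4%) and 29 lower (0.438%). GABAergic arcuate neurons include the Agrp cells, and without those holding 20 or more Agrp UMIs, 99 of 6824 were higher (1.45%) and 105 lower (1.54%), of which 96 and 61 were shared with the counts of 157 and 89.

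Tac1 led the higher genes, at 851, 532 and 957 CPM in SC, 5-day and 15-day against 16.5, 16.3 and 5.24 CPM, a 32.7- to 182-fold difference. Cnr1 was at 346, 341 and 336 CPM against 34.7, 28.2 and 24.3 CPM, with 68% of its glutamatergic 5-day UMIs in 1 cell. Adcyap1 was at 161, 225 and 441 CPM against 19.0, 12.0 and 12.9 CPM. Every glutamatergic level of these 3 genes lay above every GABAergic level. The same held for Foxp2, at 128, 81.8 and 156 CPM against 20.7, 10.0 and 6.20 CPM.

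Among the other named genes, Nrgn was 9.10- to 30.4-fold higher and Nptx1, a secreted pentraxin that clusters AMPA receptors, 9.63- to 13.4-fold. Kcnq3, a subunit of the M-type potassium channel, was 6.05- to 7.33-fold higher, Cacna2d1, an auxiliary calcium channel subunit, 5.15- to 8.07-fold, and Glra3, a glycine receptor subunit, 5.01- to 19.1-fold. Cbln1, a synaptic organiser, was 6.03- to 13.7-fold higher, Cdh7 6.34- to 9.62-fold and Gda 5.88- to 10.2-fold. This comparison did not leave out leading cells, and single glutamatergic cells carried much of some genes. In 5-day, 1 cell held 80% of the Cbln1 UMIs, 66% of Nrgn, 54.5% of Nptx1 and 53.8% of Gda. In 15-day, 1 cell held 57.1% of Nrgn. For Kcnq3, Cacna2d1, Glra3 and Cdh7 the share was at most 41.7% in any library.

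Lower genes included peptides and factors known from arcuate GABAergic neurons. Npy was at 24.5, 20.5 and 47.4 CPM against 2395, 4587 and 2800 CPM, and Agrp at 8.18, 6.82 and 47.4 CPM against 1044, 1865 and 1202 CPM. Otp, a homeobox factor of arcuate peptide neurons, was at 10.9, 6.82 and 14.2 CPM against 137, 243 and 131 CPM. Cartpt, Serpina3n, Arhgap36, Dgkk, Rab3b, Cd63, Rasgrp1, Ecel1 and Asb4 completed the 12 named. Of these, Agrp alone was no longer counted once the Agrp-rich cells were left out. Differences that stayed could still shrink. Without those cells the GABAergic level of Npy was 127, 56.8 and 121 CPM in SC, 5-day and 15-day, and that of Otp 87.8, 50.6 and 41.4 CPM. Agrp shares 11.2% of its exon bases with an overlapping gene model on the same strand.

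**Figure D4:**
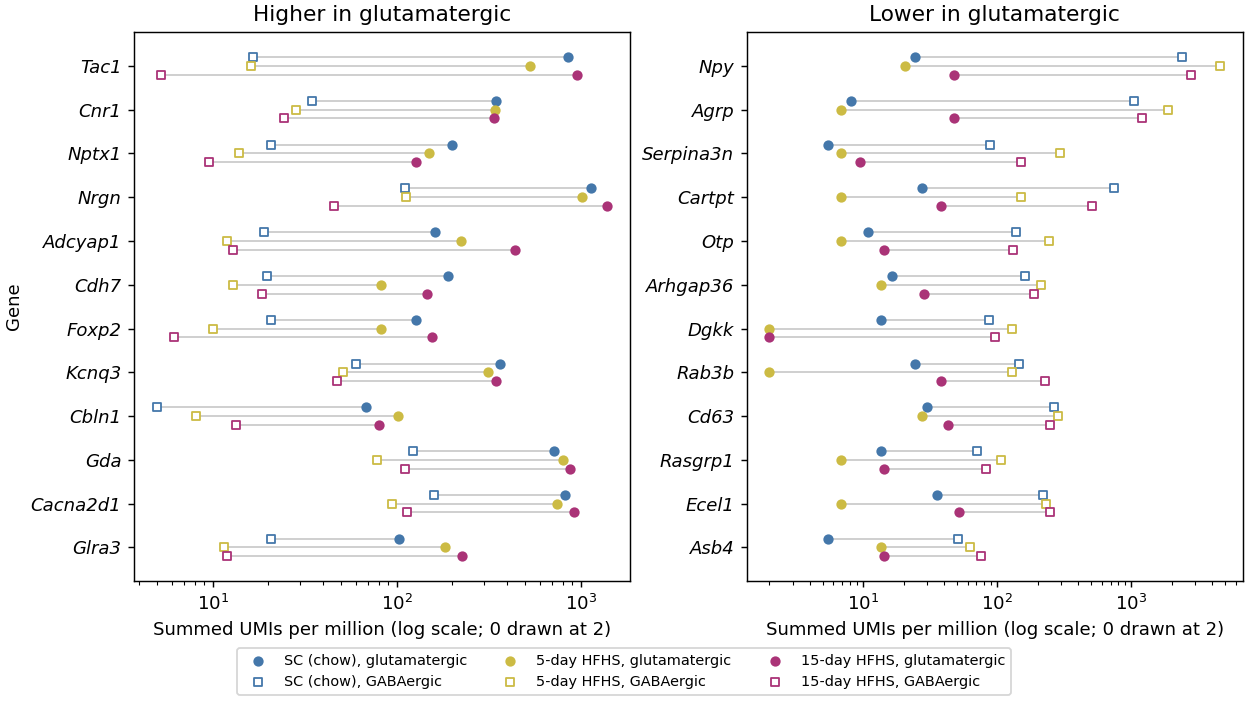
Summed UMIs as CPM (x axis, log scale) of the 12 genes named in each direction, for the glutamatergic neuronal members (filled circles) and GABAergic neurons (open squares) of each library. Each line joins both classes in 1 library, and the circles lie to the right of the squares for every gene in the left panel and to the left for every gene in the right panel.

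By gene list, 6 of 7 ventromedial genes with enough UMIs were higher by this rule (Adcyap1, Cnr1, Gda, Nkx2-1, Nptx2 and Rreb1). Dlk1, an imprinted Notch-family ligand on the same list, was lower, at 81.8, 348 and 75.8 CPM against 788, 810 and 842 CPM. Voltage-gated channels had 7 of 42 higher (among them Kcnj3, Kcnh7, Cacna2d1, Kcnmb4, Kcnq3 and Scn8a) and Scn9a lower. Glutamate receptors had 3 of 18 higher (Grm5, Grm7 and Gria1), with Grm5, a metabotropic receptor, at 584, 518 and 786 CPM against 132, 53.6 and 97.2 CPM. GABA and glycine receptors had 3 of 16 higher (among them Gabra5 and Glra3) and Gabre lower. Vesicle release genes had 4 of 33 higher (Napb, Cplx1, Doc2b and Syt7) and Rab3b lower.

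Among 17 hormone and peptide receptors 2 were higher, Cnr1 being 1 of them, and Npy2r and Calcr were lower. The neurofilament genes Nefl and Nefm were higher, with Nefl at 207, 225 and 298 CPM against 67.8, 65.5 and 64.8 CPM. Among 9 immediate-early genes, which report recent activity or the stress of dissociation, Btg2, Jun, Junb and Fos were lower, with Jun at 32.7, 34.1 and 42.6 CPM against 160, 200 and 183 CPM. Of 40 nuclear respiratory chain genes, 31 were lower in each library but none reached 2-fold. Over all genes, 2036 of 6785 were higher and 1465 lower in each of the 3 libraries.

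Diets were compared by size alone: a gene was counted when it had at least 100 UMIs in both libraries together, at least 30 CPM in either, a 1.5-fold or larger difference with an exact 95% counting interval clear of a ratio of 5 to 4, and still that difference without the cell holding most of its UMIs in each library. In the neuronal members, 24 of 1039 genes were higher in the 15-day than in the SC library (2.31%) and 11 lower (1.06%). For 5-day against SC, 8 of 909 were higher (0.88%) and 11 lower (1.21%). Both contrasts share the SC library.

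Adcyap1 was higher in the 15-day library, with 59 UMIs in SC and 93 in 15-day, or 161 and 441 CPM, a log2 ratio of 1.45 (0.97 to 1.95). It was detected in 14 cells of each library, and the cell with most held 28.8% of its UMIs in SC and 20.4% in 15-day. The 5-day value lay between them at 225 CPM. Of the 93 Adcyap1 UMIs in 15-day, 17 came from the cell that also held 181 UMIs of microglial genes. The part of that cell in the ratio was not tested. In the GABAergic neurons Adcyap1 went from 19.0 to 12.9 CPM (log2 −0.56), and over the rest of the library its log2 ratio was −0.45. Over all 107 members the log2 ratio was 1.73. Under 9 other settings for the neuronal members it ranged from 0.98 to 2.37.

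Tac1, Foxp2 and Slc17a6 did not meet the size rule in either contrast of the neuronal members. Tac1 was at 851, 532 and 957 CPM, with 50% of the 5-day UMIs in 1 cell. Over all 107 members Tac1 was counted lower in 5-day, at 208 CPM against 383 CPM in SC (log2 −0.88). Foxp2 was at 128, 81.8 and 156 CPM and Slc17a6 at 502, 477 and 568 CPM. Of the 4 ventromedial genes with 50 UMIs or more in SC and 15-day together, Adcyap1 was counted higher and Rreb1 lower.

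Calb1, the calcium-binding protein calbindin, was lower in the 15-day library, at 573, 341 and 175 CPM in SC, 5-day and 15-day, a log2 ratio of −1.71 (−2.25 to −1.20) for 15-day against SC. It was detected in 26 of 33 cells in SC and 15 of 29 in 15-day, and in the rest of the library its log2 ratio was 0.02. Rreb1 was at 267, 239 and 109 CPM, a log2 ratio of −1.29 (−2.02 to −0.63). Enah and Adgrl3, an actin regulator and an adhesion receptor of synapses, had log2 ratios of −1.16 and −1.13. The calcium sensors Ncald and Vsnl1 were also lower, with −1.10 and −0.95. Over all 107 members Calb1 had −1.37 and was counted, while Rreb1 had −0.74 and was not.

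The 3 largest ratios among the named higher 15-day genes belonged to genes abundant in other cell types. Mbp, a myelin gene, was at 183 CPM in SC and 848 CPM in 15-day (log2 2.21), and at 1.52 without the cell with most, while over the rest of the library its log2 ratio was −0.15. Cst3, a cystatin abundant in microglia and astrocytes, was at 698 and 2525 CPM (log2 1.85). A single 15-day cell held 44.8% of the Cst3 UMIs, the log2 ratio without it was 1.17, and over all 107 members it was −0.35. Dbi had a log2 ratio of 1.72, which was 0.92 without its leading cell, and over all 107 members it was counted lower, at −1.16. Mt1 had 1.31 in the neuronal members and −0.27 over all 107. Apoe had 0.94 and 0.02, and −0.45 in neuronal members with at least 2 Slc17a6 UMIs. The summed microglial and oligodendrocyte levels given above were higher in 15-day than in SC, and their part in these ratios was not tested.

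Of the 24 higher 15-day genes, 20 had the same sign in the rest of the library and 10 also passed the 1.5-fold ratio there. Ribosomal protein genes made up 11 of the 24, which came from 1039 genes with at least 100 UMIs. At a lower minimum of 50 UMIs, 79 of the 2499 genes measured in that contrast were ribosomal. These shares rest on different sets of genes and cannot be set against each other. Of these 79 ribosomal genes, 63 were higher in 15-day (79.7%), beside 44.9% of all genes measured. Their median log2 ratio was 0.21 against −0.05 over all genes. In the 5-day library 60 of 79 were higher (75.9%), beside 56.9% of all 2252 genes measured, with a median of 0.15 against 0.06. The mitochondrially encoded genes were lower in 5-day in 11 of 11 (median log2 −0.48, 1 counted) and higher in 15-day in 9 of 12 (2 counted). Median mitochondrial shares of the cells were 11.5%, 9.34% and 11.3% in SC, 5-day and 15-day. Nuclear respiratory chain genes had none counted in either contrast.

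The 5-day library held only 13 neuronal members, and single cells carried much of many genes. Mbp was the gene with the largest higher ratio, at 183 and 546 CPM (log2 1.58). Ndn, an imprinted gene of postmitotic neurons, had a log2 ratio of 1.41, with 60.6% of its 5-day UMIs in 1 cell, and Fabp5, Skp1a, Vcp, Sncb and Eno2 had 1.22, 1.08, 0.97, 0.93 and 0.91. Among lower genes, Six3, a homeobox factor, was at 275 and 88.7 CPM (log2 −1.64, and 0.02 over all 107 members), Camk2d at 267 and 95.5 CPM (−1.48) and Calb2, which encodes calretinin, at 1004 and 464 CPM (−1.11). Camk2d was counted higher in 15-day, at 450 CPM (log2 0.75). Avp was lower in both contrasts, by −8.24 and −0.98, with 98.7% of its SC and 99.1% of its 15-day UMIs in 1 cell each.

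**Figure D5:**
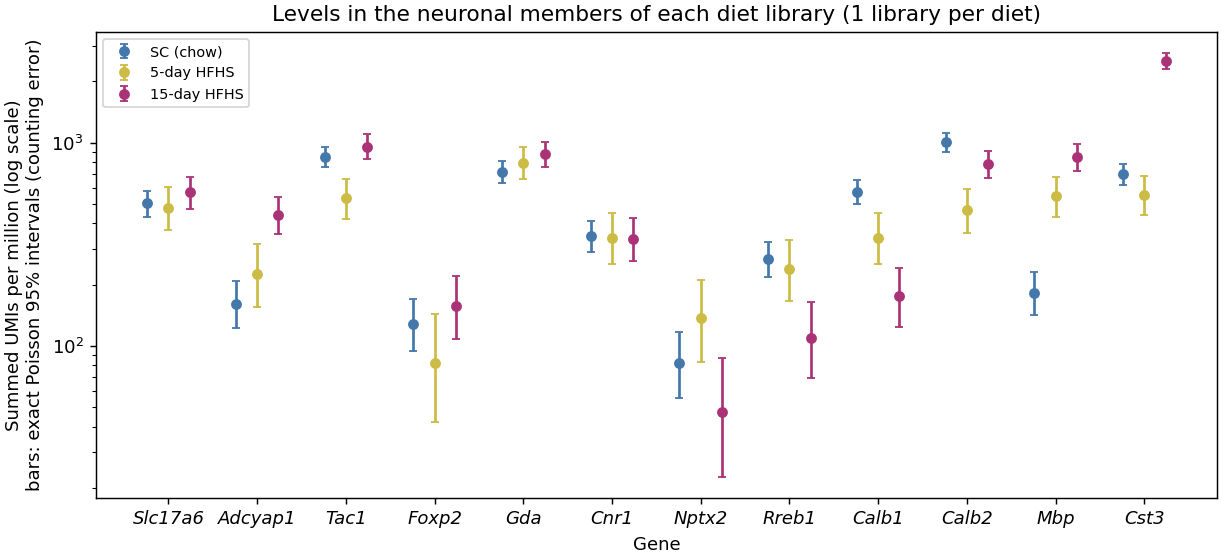
Summed UMIs as CPM (y axis, log scale) of 12 genes on the x axis in the neuronal members of the SC, 5-day and 15-day libraries, with exact Poisson 95% intervals for counting error. Adcyap1 is highest and Calb1 and Rreb1 lowest in 15-day, while Slc17a6, Gda and Cnr1 have overlapping intervals in the 3 libraries.

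Over all 107 members, the glial-marker barcodes held most UMIs of many counted genes. For 15-day against SC, 41 of 2304 genes were higher (1.78%) and 106 lower (4.6%), and 102 of the 106 had most of their UMIs in glial-marker barcodes. For 5-day against SC, 26 of 2365 were higher (1.1%) and 44 lower (1.86%), with 23 and 27 mostly glial. Of the genes counted in the neuronal members, 13 of the 24 higher and 2 of the 11 lower in 15-day were counted here too.

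All 7 measured genes of the ependymal list were lower in both contrasts over all 107 members, with median log2 ratios of −2.20 in 15-day and −1.22 in 5-day against −0.02 over all genes in each. Of these, 6 met the size rule in 15-day and 5 in 5-day, beside 4.6% and 1.86% of all genes with enough UMIs for that rule. Tmem212 was the lowest 15-day gene, at 215 and 11.2 CPM, followed by Tm4sf1, Clec3b and Ramp1. Tmem212 and Tm4sf1 were detected in 11 and 8 of the 45 SC barcodes, with 43.8% and 41.3% of their SC UMIs in 1 barcode. In 5-day, 1 barcode held all UMIs of each. Without the leading barcodes their 15-day log2 ratios were −5.46 and −3.43. In the rest of the library they were −0.42 and −0.55 in 15-day, and 0.26 and 0.05 in 5-day. The immediate-early genes Fos, Egr1, Jun and Btg2 were higher in 5-day with log2 ratios of 1.90, 1.94, 1.71 and 1.89, and 92.3 to 100% of their 5-day UMIs lay in glial-marker barcodes. A single barcode held 57.1% of the 5-day Fos UMIs, 64.6% of Egr1, 68.1% of Jun and 68.6% of Btg2. Without the leading barcodes their log2 ratios were 1.33, 1.03, 0.72 and 1.09.

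Some genes counted over all 107 members shifted in the whole library. Grcc10 had a log2 ratio of 1.60 in the members and 1.81 in the rest, and shares 20.2% of its exon bases with an overlapping gene model on the same strand. Epha4, an ephrin receptor, had 1.57 in the members and −0.15 in the rest, with at most 7.02% of its UMIs in glial-marker barcodes, and Tmem130 and Pianp had 0.98 and 0.97.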

How the data were processed

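Counts are raw UMI counts per gene and barcode as deposited by the authors, 1 filtered matrix per library. Per the submitters' processing notes, Cell Ranger, SAMtools and Scanpy 1.4.4 were used with GRCm38. Per the file headers, the matrices were written by software version 3.1.0. The 10x 3′ protocol counts UMIs, so PCR copies are merged. Members were found by the rule above, UMIs were summed per library and class, and levels are CPM of that sum. The members, the 39 gene lists (611 genes, 1 of them not matched among 31253 features) and the rules were chosen with earlier results of these data known. Named genes are the 10 largest ratios per direction for diets, the 12 with the largest smallest-library ratio per direction for classes and up to 8 per marker for positive cells, leaving out gene models, ribosomal and mitochondrial genes. Further genes come from the lists or are named as chosen after their values were seen. Exact Clopper-Pearson, Poisson and conditional binomial 95% intervals cover counting error only. A count of 0 was set to 3 for a ratio, which is then a bound. No count model was fitted because each diet has 1 library; TMM factors came from edgeR 4.0.16 as an alternative scaling. Doublets were kept; an alternative left out the 596 barcodes with the highest Scrublet scores (0.8% per 1000 barcodes). Rules were tested on simulated data. Positions come from GENCODE M21 and promoters from RefSeq. Python 3.11.15, NumPy 2.4.6, SciPy 1.17.1, pandas 2.3.3, Scanpy 1.11.5, Matplotlib 3.10.9 and R 4.3.3 were used. Protein sequences were not used here. Some named genes and list members are not reported here.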

Additional observations from a re-analysis of the deposited data

How the results depend on the processing

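No paired analysis was possible because each diet has 1 library. Shares and counts below refer to all 107 members. Leaving out the glial-marker barcodes, an alternative chosen after seeing the data, moved the glutamatergic share to 10.8% in SC and 7.47% in 15-day and the 5-day Adcyap1 share to 61.5%. It moved the genes higher and lower to 8 and 11 in 5-day, 24 and 11 in 15-day, and 157 and 89 against GABAergic neurons, where 105 were lower without Agrp-rich cells as well. With at least 2 Slc17a6 UMIs the share of all neuron-gate barcodes, glial-side ones included, was 3.104%, 2.05% and 2.67% in SC, 5-day and 15-day. At that setting Adcyap1 was in 56.5% (SC) and 57.9% (15-day), Tac1 in 56.5% and 52.6%, and 62 genes were higher in 15-day. With equal weight for each cell the counts were 178 higher and 291 lower in 5-day and 115 and 258 in 15-day. With cells thinned to 4000 UMIs they were 12 and 5, then 11 and 4. With at least 50 UMIs and no CPM minimum they were 42 and 79, then 68 and 172. At most 10% mitochondrial UMIs gave 57 higher against GABAergic neurons and a 5-day Foxp2 share of 6.25%. A class ratio of 3 gave 37 higher and 18 lower. The sign turned for Ccdc153 (0.069) and Tmem212 (0.30) in 5-day with equal weight, for Tmem130 (−0.0028) in 15-day with 2 Slc17a6 UMIs, and, in the neuronal members in 15-day, for Apoe (−0.45) with 2 Slc17a6 UMIs and Ptn (0.49) with equal weight. The cause was not tested. Named genes with under 50 UMIs under a setting got no value, which held for 15 of 20 in 5-day and 13 of 20 in 15-day without glial-marker barcodes. Values of the 5-day library rest on 13 neuronal members.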
